A study of Mus musculus with 43 samples.

Results

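Open chromatin was compared between neurons of enriched (EE) and standard-housed (SH) female mice, in the ATAC-seq count table of the female libraries. The table holds 165184 regions, of 358103 ATAC regions counted for both sexes in the series, and all of them were taken. Its columns are 6 libraries of the 43 in the series: 3 EE and 3 SH. ATAC-seq marks DNA that a transposase can reach, so a region's count rises with its accessibility.

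All mice were wild-type Swiss Webster, an outbred stock, weaned at postnatal day 25 and sampled at 2 months of age. EE mice lived in larger cages that held extra nesting material, a running wheel, a tube and toys that were exchanged regularly, and SH mice lived in small cages with bedding and 1 nestlet. Frontal cortex was fixed with paraformaldehyde, and nuclei positive for NeuN, a neuronal nuclear protein, were sorted. The labels do not say whether replicates came from separate animals, litters or cages, so a p here measures the spread between libraries, which may be technical. In a bulk library, fewer nuclei of a type and less open chromatin per nucleus cannot be told apart.

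Neurons that fire switch on immediate early genes such as Fos, Egr1, Npas4 and Arc within a short time. Their products, and the later genes that they and calcium signalling turn on (Homer1 and Bdnf among them), adjust synapses. Enhancers and introns of such genes open further when the genes are transcribed, and AP-1, CREB and EGR factors bind near many of them. ATAC-seq therefore reads a regulatory state, while RNA reads the output.

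Promoter sequences are given for 3 genes whose regions fell in EE mice (Btg2, Homer1 and Ntrk2) and for Nr4a1, an immediate early gene among those fixed for promoter description. Each is a RefSeq window (GRCm38.p6) from 250 bases before to 50 after a start, written 5′ to 3′ on the gene's strand. Capitals mark letters found by a search of both strands for the AP-1 motif TGACTCA, the cyclic AMP response element (CRE) TGACGTCA, the E-box CAGCTG and the EGR motif GCGGGGGCG, which do not overlap each other here.
Btg2 (chr1:134079106-134079405, minus strand): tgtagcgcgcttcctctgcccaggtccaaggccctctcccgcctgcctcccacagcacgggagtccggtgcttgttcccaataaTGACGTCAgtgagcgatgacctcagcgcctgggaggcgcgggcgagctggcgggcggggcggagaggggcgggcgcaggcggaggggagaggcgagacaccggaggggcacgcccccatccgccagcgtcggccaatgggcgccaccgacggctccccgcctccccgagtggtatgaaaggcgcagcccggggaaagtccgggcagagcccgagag
Homer1 (chr13:93303507-93303806, plus strand): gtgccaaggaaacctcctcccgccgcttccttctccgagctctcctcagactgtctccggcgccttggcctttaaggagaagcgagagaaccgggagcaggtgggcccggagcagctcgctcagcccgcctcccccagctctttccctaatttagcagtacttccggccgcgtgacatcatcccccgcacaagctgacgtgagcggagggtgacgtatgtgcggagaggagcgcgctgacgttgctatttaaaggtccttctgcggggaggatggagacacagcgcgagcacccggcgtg
Ntrk2 (chr13:58806319-58806618, plus strand): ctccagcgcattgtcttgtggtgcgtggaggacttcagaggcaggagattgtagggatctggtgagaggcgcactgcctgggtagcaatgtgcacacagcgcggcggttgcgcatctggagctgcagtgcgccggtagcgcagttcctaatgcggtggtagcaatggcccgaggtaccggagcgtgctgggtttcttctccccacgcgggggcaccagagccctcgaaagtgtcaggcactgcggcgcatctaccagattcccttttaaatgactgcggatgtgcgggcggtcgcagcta
Nr4a1 (chr15:101266596-101266895, plus strand): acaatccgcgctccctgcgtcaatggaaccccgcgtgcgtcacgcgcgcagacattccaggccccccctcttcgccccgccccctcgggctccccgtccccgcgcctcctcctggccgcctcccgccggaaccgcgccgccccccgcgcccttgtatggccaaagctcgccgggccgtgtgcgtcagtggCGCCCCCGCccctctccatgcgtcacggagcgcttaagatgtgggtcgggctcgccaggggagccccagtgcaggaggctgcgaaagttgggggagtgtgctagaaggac
The Btg2 window holds 1 CRE and the Nr4a1 window 1 EGR motif, and the other 2 windows hold none of the 4. Of 11085 promoter windows that lie inside a tested region, 3.64% hold the CRE, 4.38% the EGR motif, 3.27% the AP-1 motif and 14.7% the E-box.

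Total counts ran from 23566477 to 26257066 per EE library and from 19075368 to 23827856 per SH library, so they overlapped. An exact two-sided permutation test of the totals gave p = 0.2, where 0.1 is the smallest possible. Promoter regions held 33.3% ± 0.27 of EE counts and 34.3% ± 1.28 of SH counts (p = 0.3 by the same exact test), with SH replicate 2 highest at 35.7%. Of markers fixed for cell types, 10 of 10 neuronal genes had a region at their promoter, with a summed level of 133 to 136 CPM (counts scaled to library size) per kb in EE and 136 to 148 in SH. No promoter region was present for 7 of 7 microglial markers and 3 of 3 oligodendrocyte precursor markers. The astrocyte markers, 3 of 6 with a region (Aqp4, Aldh1l1 and Gja1 without), summed to 20.2 to 21.5 CPM per kb in EE and 22.9 to 26.9 in SH (exact permutation p = 0.1, the smallest possible). Oligodendrocyte markers, 2 of 7 with a region, summed to 14.7 to 18.3 in EE and 17.9 to 18.8 in SH.

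Most of the open chromatin of these neurons showed no called difference, and the regions that did fell into 2 sets. Regions inside or near Ntrk2, Homer1, Arc, Btg2, Bhlhe40 and the long noncoding RNA gene Lncpint were among those that fell in EE mice. Of the regions that rose in EE mice, 61.4% lay over 100 kb from the start of a protein-coding gene, against 27.5% of all tested regions, although 10 of 57 lay in gene deserts as defined by genes of any kind. Of 164926 regions tested, 78 were called at an adjusted p under 0.05 (edgeR quasi-likelihood test with Benjamini-Hochberg adjustment), which is 0.0473% of all. Of these, 57 were higher in EE (0.0346% of regions tested) and 21 lower (0.0127%). At an unadjusted p under 0.05, 13204 regions (8.01%) differed.

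How many regions were called depended on single libraries. Leaving out EE replicate 1, 2 or 3 gave 114, 17 and 18 regions higher and 52, 9 and 6 lower. Leaving out SH replicate 1, 2 or 3 gave 260, 16 and 17 higher and 73, 6 and 11 lower. Of the 78 called regions, 6 were called in each of the 6 fits that left 1 library out, and 71 kept their direction in all 15 alternative fits. The rest kept their direction in the 14 fits that gave them an estimate. The remaining fit required a higher mean count and did not test them.

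**Figure D1:**
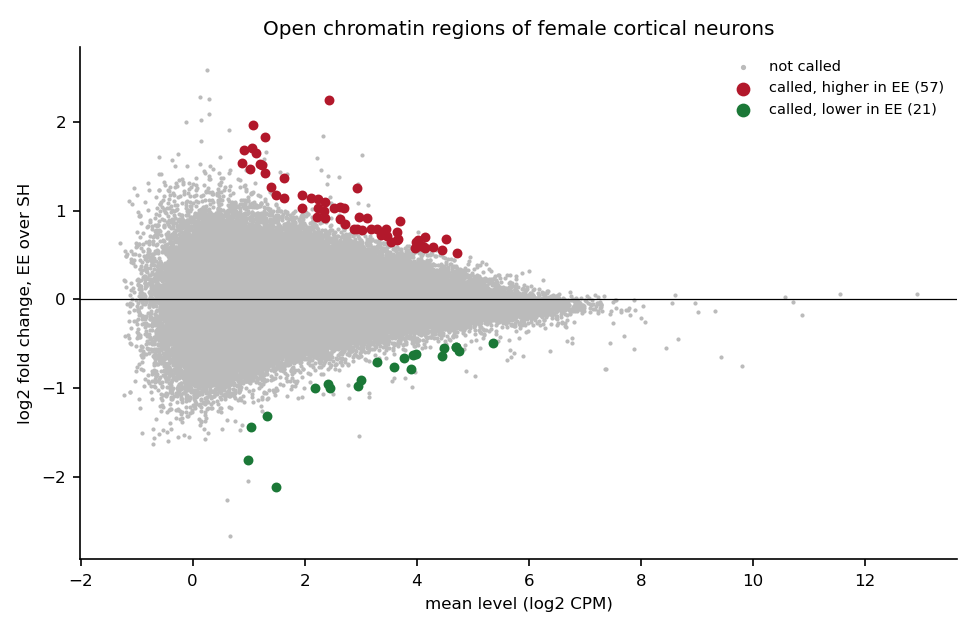
Log2 fold change of EE over SH against mean level (log2 CPM) for each of the 164926 tested regions, with called regions in colour. The 57 called higher and 21 called lower regions lie at the outer edge of the cloud.

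The 21 regions that fell had a median width of 1340 bases, against 692 for the 57 that rose and 446 for all tested regions. Median levels were 12.1, 6.49 and 3.01 CPM in the same order, so both called sets were broader and higher in level than most regions. Of the 21, 12 lay within 100 kb of the start of a protein-coding gene. The other 9 (42.9%) lay farther away, against 27.5% of all tested regions. The log2 fold changes of the 21 ran from -2.11 to -0.49. The plot of the leading fallen regions shows each library.

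**Figure D2:**
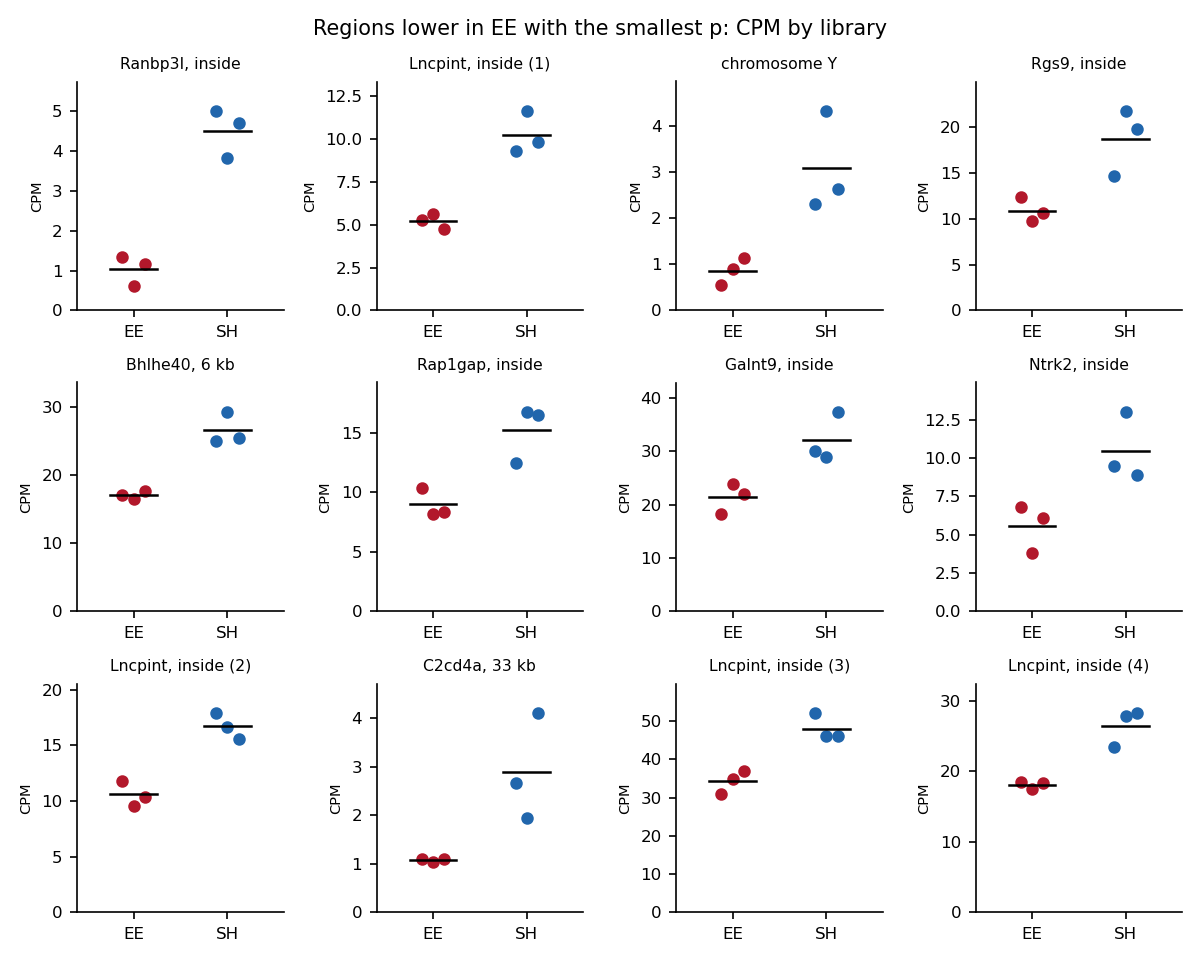
CPM per library (points) and group mean (horizontal lines) for the 12 regions lower in EE with the smallest p, each named by the gene that holds it or by the nearest protein-coding gene with its distance. In every panel the 3 EE libraries lie below the 3 SH libraries.

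The smallest p among them belonged to a region inside Ranbp3l, a gene related to a nuclear transport factor (chr15:9015717-9016296). It had 1.35, 0.619 and 1.17 CPM in EE libraries and 5, 3.82 and 4.71 CPM in SH libraries. EE libraries were all lower, by a log2 fold change of -2.11 ± 0.27 (SE; edgeR adjusted p = 1.8e-06). It was called in each of the 6 fits that left 1 library out.

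Lncpint, a long noncoding RNA gene induced by p53, held 5 of the 21 fallen regions, more than any other gene in this set. The region with the smallest p among them (chr6:31104347-31105514) had 5.27, 5.65 and 4.75 CPM in EE libraries and 9.3, 11.6 and 9.86 CPM in SH libraries. All EE values lay below all SH values, and the log2 fold change was -0.97 ± 0.17 (edgeR adjusted p = 0.0026). A broad region at an annotated start inside the gene (chr6:31106000-31110414) had 30.9, 34.9 and 37 CPM in EE libraries and 52, 46 and 46 CPM in SH libraries (-0.49 ± 0.10, edgeR adjusted p = 0.029). This was the only fallen region in the promoter class, and it was called in 0 of the 6 fits that left 1 library out, with edgeR. The other 3 fell by 0.66, 0.55 and 0.54 on the log2 scale.

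The lower level ran along the whole Lncpint gene and was not limited to the called regions. Inside the gene, 75 regions were tested, and 74 of them had a negative fold change, with a median of -0.39 against -0.01 over all tested regions. In 42 of the 75, every EE library lay below every SH library, a pattern held by 6.3% of all tested regions. In the 22 regions outside the gene and within 100 kb of its start the median was -0.25. The median level of the regions inside, relative to the mean of the 6 libraries, was -0.16, -0.20 and -0.19 (log2) in EE libraries and 0.07, 0.22 and 0.27 in SH libraries, so SH replicate 1 stood nearest to EE. The locus was singled out for its called regions, so these values describe it and test nothing.

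Ntrk2 encodes TrkB, the receptor for brain-derived neurotrophic factor, and held 2 fallen regions in its introns. The first (chr13:58924175-58925901) had 6.83, 3.83 and 6.07 CPM in EE libraries and 9.51, 13 and 8.9 CPM in SH libraries. EE libraries were lower throughout, by -0.90 ± 0.18 (edgeR adjusted p = 0.02). The second (chr13:58956372-58957119), named after its values were seen, had 3.63, 2.32 and 3.02 CPM in EE and 7.13, 6.08 and 4.67 CPM in SH, without overlap (edgeR adjusted p = 0.029). Along the gene, 86 regions lay within 200 kb of the start, with a median of -0.45 and 6 positive, while the 33 beyond it had a median of -0.16 and 8 positive. That distance was chosen after seeing the profile, and the gene is described for its called regions, so these medians test nothing. At the promoter shown above, the region had 44.1, 48.2 and 47.2 CPM in EE and 44.2, 56 and 55.9 CPM in SH, which overlap (-0.16 ± 0.10, edgeR adjusted p = 0.73).

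**Figure D3:**
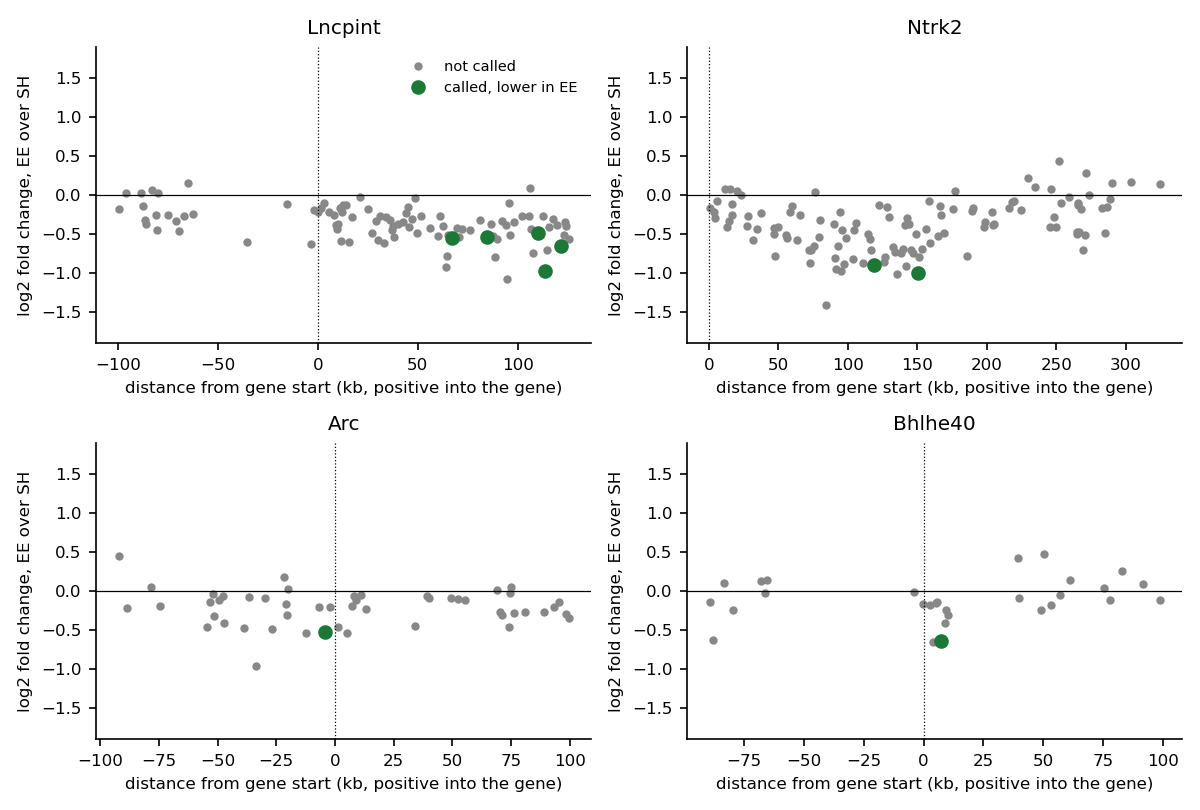
Log2 fold change of EE over SH for every tested region around 4 genes, against the distance of its midpoint from the gene start in kb (positive into the gene). Grey points are not called and green points are called lower in EE. Lncpint has a median of -0.37 over 97 regions, Ntrk2 of -0.38 over 119, Arc of -0.20 over 50 and Bhlhe40 of -0.12 over 29. Each gene is shown for its called regions, so these medians are descriptions.

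Arc, the immediate early gene whose product traffics AMPA receptors at active synapses, had a fallen region 2.66 kb upstream of its start (chr15:74675230-74678024). It had 22.5, 20 and 21.3 CPM in EE libraries and 27.5, 28.5 and 36.1 CPM in SH libraries (-0.53 ± 0.11, edgeR adjusted p = 0.032). All EE libraries were lower, and SH replicate 3 was the highest. The broad region that overlaps its promoter had 93, 95 and 70.2 CPM in EE and 109, 102 and 145 CPM in SH, and it was not called (-0.47 ± 0.13, edgeR adjusted p = 0.26).

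Btg2, an immediate early gene with antiproliferative function, had a fallen region 4.04 kb past its start (chr1:134074171-134075083), named after its values were seen. It had 3.29, 4.53 and 3.02 CPM in EE and 5.38, 6.03 and 10.1 CPM in SH (-0.99 ± 0.21, edgeR adjusted p = 0.035). SH replicate 3 again stood highest. The region at the Btg2 promoter shown above had 26.6, 27.8 and 25.1 CPM in EE and 29, 35.2 and 34.2 CPM in SH, without overlap but not called (-0.31 ± 0.11, edgeR adjusted p = 0.36).

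Homer1 encodes a postsynaptic scaffold whose short form is made after activity, and an intronic region of it fell (chr13:93372855-93375073). The region had 14.4, 11.3 and 11.8 CPM in EE and 16, 22 and 19.2 CPM in SH (-0.61 ± 0.13, edgeR adjusted p = 0.035). The gene is described here for its called region, so the values along it test nothing. Inside the gene 69 of 76 regions had a negative fold change, with a median of -0.37 against -0.01 over all tested regions. The per-library medians there were -0.09, 0.04 and -0.38 in EE and 0.05, 0.05 and 0.38 in SH, so EE replicate 3 and SH replicate 3 stood farthest apart and the other libraries were close. At the promoter shown above the groups overlapped (72.2, 66.6 and 70 CPM in EE; 69.2, 75.5 and 80.5 CPM in SH; -0.11 ± 0.09, edgeR adjusted p = 0.83).

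Bhlhe40, an activity-induced repressor that also acts in the circadian clock, had a fallen region 6.2 kb past its start (chr6:108666831-108669197). It had 17, 16.4 and 17.7 CPM in EE libraries and 25.1, 29.2 and 25.4 CPM in SH libraries. The replicates of each group lay close together, and the log2 fold change was -0.64 ± 0.12 (edgeR adjusted p = 0.0045). It was called in 4 of the 6 fits that left 1 library out. The fallen regions of Arc, Btg2 and Homer1 were each called in 2 of these fits. The first and second Ntrk2 regions were called in 3 and 2.

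Regions in Rgs9, Rap1gap and Galnt9 fell as well. A region in Rgs9, which ends G protein signalling and is abundant in striatal neurons, had 12.3, 9.75 and 10.6 CPM in EE and 14.6, 21.7 and 19.8 CPM in SH (-0.78 ± 0.14, edgeR adjusted p = 0.0033). A region in Rap1gap, which switches off the GTPase Rap1, fell by 0.76 ± 0.14 on the log2 scale (edgeR adjusted p = 0.0082). A region in Galnt9, a brain-enriched enzyme that starts O-linked glycans, had 18.3, 23.9 and 22.1 CPM in EE and 30.1, 29 and 37.3 CPM in SH (-0.58 ± 0.11, edgeR adjusted p = 0.014). Of 34 regions around Galnt9, 33 had a negative fold change, with a median of -0.33. Over all tested regions 48.3% were positive, with a median of -0.01. The Galnt9 locus was singled out for its called region, so these values describe it and test nothing. Promoters of striatal marker genes, 7 of 8 with a region, summed to 61.5 to 74.1 CPM per kb in EE and 56.7 to 73.3 in SH.

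The rest of the fallen set had no shared theme fixed by a list. A region 33.2 kb from C2cd4a had 1.1, 1.05 and 1.09 CPM in EE and 2.67, 1.94 and 4.1 CPM in SH (-1.43 ± 0.30, edgeR adjusted p = 0.026). Both fallen regions on chromosome Y lie in the end that Y shares with X (-1.81 and -1.31), where reads of a female library cannot be placed on 1 chromosome. Regions near Ociad2, Scrn1 and Gm7972, named after their values were seen, fell by 0.71, 0.62 and 0.95 on the log2 scale.

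The median distance of the 57 risen regions to the start of a protein-coding gene was 145 kb, against 62.1 kb for the regions that fell and 36.9 kb for all tested regions. With genes of any kind counted, coding or not, 33 of the 57 were intergenic and within 100 kb of a gene start, 13 lay in gene bodies, 10 in gene deserts (over 100 kb from any gene start) and 1 at a promoter. Nearest genes are given below as landmarks and not as targets.

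**Figure D4:**
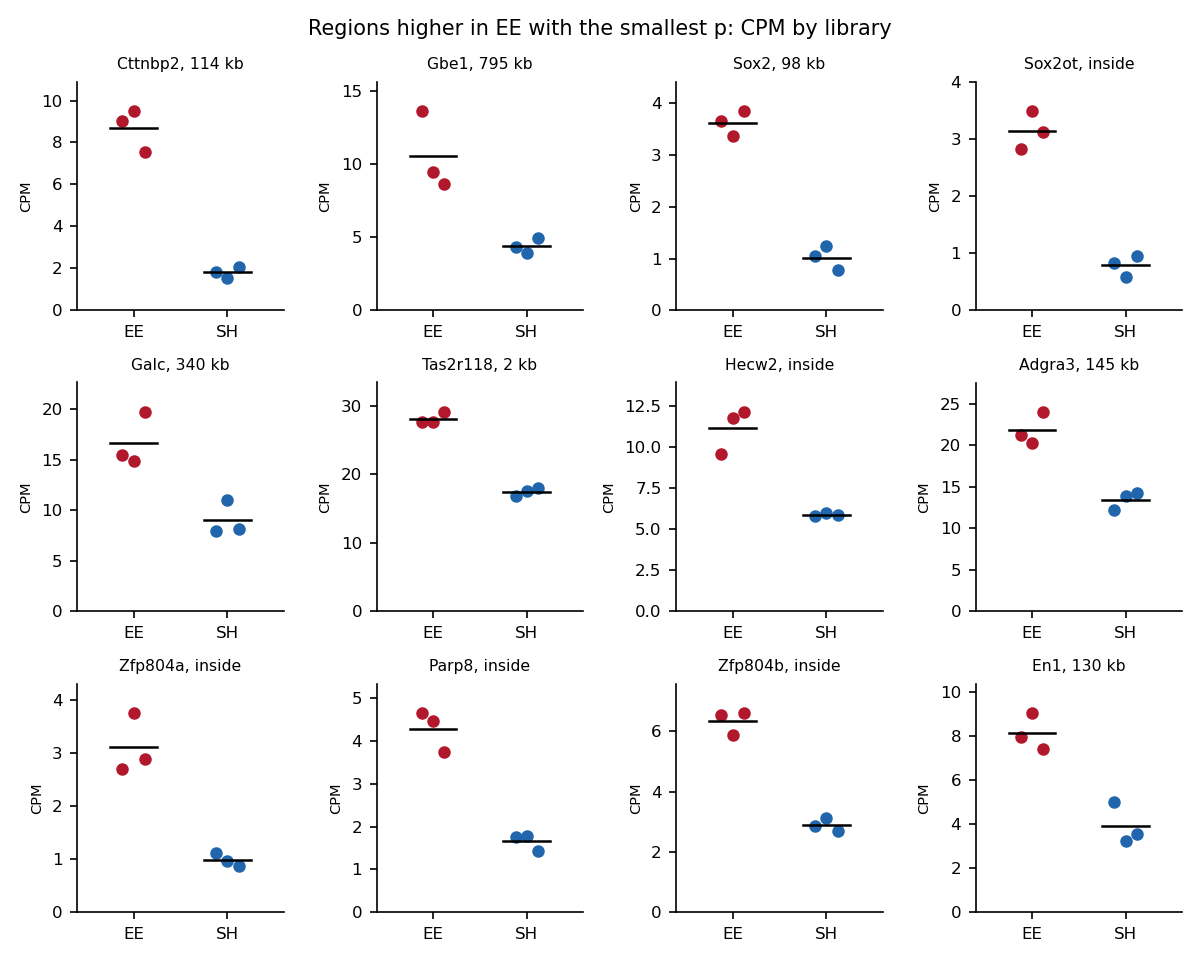
CPM per library (points) and group mean (horizontal lines) for the 12 regions higher in EE with the smallest p, each named by the gene that holds it or by the nearest protein-coding gene with its distance. In every panel the 3 EE libraries lie above the 3 SH libraries.

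The region with the smallest p of all lay 114 kb upstream of Cttnbp2, which encodes a cytoskeletal protein of dendritic spines (chr6:18628441-18629049). It had 9.02, 9.48 and 7.54 CPM in EE libraries and 1.83, 1.56 and 2.05 CPM in SH libraries. The groups were far apart relative to the spread within each, with a log2 fold change of 2.25 ± 0.21 (edgeR adjusted p = 8.3e-12), and it was called in all 15 alternative fits. In the male table the matching region had a log2 fold change near 0 (-0.01 ± 0.49, edgeR unadjusted p = 0.98).

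A pair of regions flanked Sox2, a transcription factor of neural progenitors. The one 97.8 kb past its start (chr3:34748191-34748721) had 3.67, 3.37 and 3.85 CPM in EE and 1.04, 1.24 and 0.785 CPM in SH (1.83 ± 0.28, edgeR adjusted p = 0.00025). The one in Sox2ot, the noncoding gene that spans Sox2 (chr3:34470670-34470948), had 2.82, 3.48 and 3.13 CPM in EE and 0.834, 0.592 and 0.96 CPM in SH (1.96 ± 0.30, edgeR adjusted p = 0.00026). The rest of the locus did not share the direction: the 11 regions nearest to the Sox2 start and within 100 kb of it, the first risen region included, had a median of 0.01, with 6 positive. Both rest on few reads, with 11 to 25 counts per SH library.

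Regions with more reads rose as well. One 2.2 kb past the start of the taste receptor gene Tas2r118 (chr6:23966507-23967863) had 27.7, 27.6 and 29.1 CPM in EE and 16.9, 17.6 and 18 CPM in SH (0.69 ± 0.11, edgeR adjusted p = 0.0013). One 145 kb from Adgra3, an adhesion receptor, had 21.2, 20.2 and 23.9 CPM in EE and 12.2, 13.8 and 14.2 CPM in SH (0.70 ± 0.12, edgeR adjusted p = 0.0033). One 340 kb from Galc, the lysosomal enzyme that degrades galactosylceramide, had 15.5, 14.9 and 19.7 CPM in EE and 7.96, 11 and 8.2 CPM in SH (0.89 ± 0.14, edgeR adjusted p = 0.00081). One 795 kb from Gbe1, the glycogen branching enzyme, rose by 1.26 ± 0.18 (edgeR adjusted p = 3.2e-05). These 4 had between 73 and 771 counts in each library.

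Within genes, the leading risen regions lay in long genes. A region in Zfp804a, a zinc finger gene of the brain, had 2.7, 3.75 and 2.9 CPM in EE and 1.13, 0.969 and 0.873 CPM in SH (1.65 ± 0.29, edgeR adjusted p = 0.0033). A region in its relative Zfp804b rose by 1.13 ± 0.20 (edgeR adjusted p = 0.0039), one in Parp8 by 1.37 ± 0.24 (adjusted p = 0.0039) and one in the ubiquitin ligase gene Hecw2 by 0.92 ± 0.16 (adjusted p = 0.0028). The last of the 12 leading regions lay 130 kb from En1, a homeobox gene of the midbrain and hindbrain (1.04 ± 0.19, edgeR adjusted p = 0.004). Among the other 45, named after their values were seen, regions lay in Tenm2, an adhesion gene (1.68 ± 0.33), in the potassium channel gene Kcnt2 (0.59 ± 0.13) and in a desert 687 kb from Mef2c, an activity-dependent transcription factor (1.52 ± 0.28).

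Across all regions, called or not, the fold change varied with distance from genes. Regions of gene deserts, 4853 in number, had a median log2 fold change of 0.19 and were positive in 76%. Intergenic regions near genes had a median of 0.06, gene bodies of -0.03 and promoters of -0.06, with 34.5% of promoter regions positive. In 17.1% of desert regions every EE library lay above every SH library, against 6.46% of all tested regions, and 10 were called higher and 0 lower in edgeR. By distance to a protein-coding start, the median was -0.07 within 1 kb, -0.07 from 1 to 10 kb, -0.01 from 10 to 100 kb, 0.06 from 100 to 500 kb and 0.20 beyond 500 kb.

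**Figure D5:**
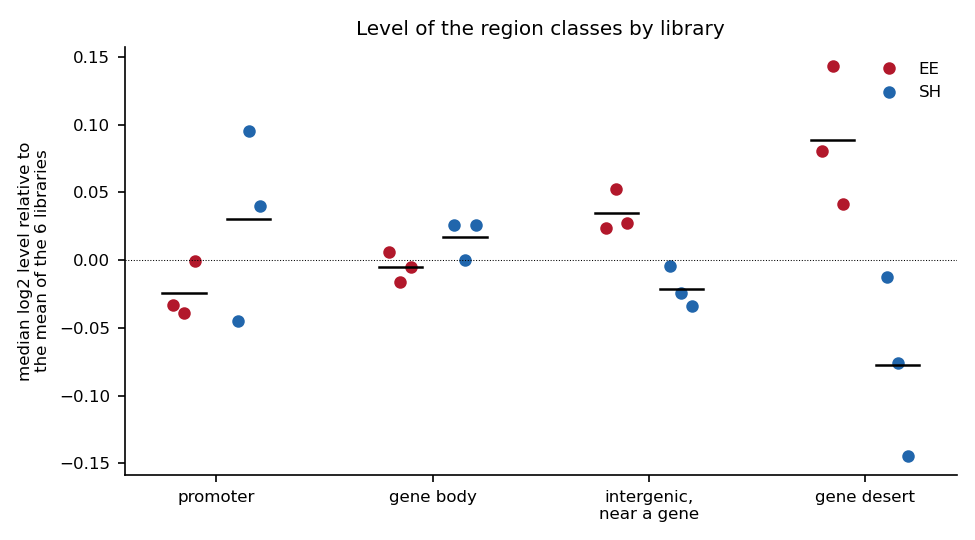
Median log2 level of 4 classes of regions in each library (points), relative to the mean of the 6 libraries, with group means (horizontal lines). In gene deserts the EE libraries lie at 0.08, 0.14 and 0.04 and the SH libraries at -0.01, -0.08 and -0.14, and at promoters the groups overlap.

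The median level of gene deserts averaged 0.09 ± 0.05 over EE libraries and -0.08 ± 0.07 over SH libraries (log2, ± SD of 3), without overlap. The exact permutation p was 0.1, the smallest possible with 3 against 3, and 0.45 when adjusted over the 9 library measures compared. Intergenic regions near genes did not overlap either (0.03 ± 0.02 in EE libraries and -0.02 ± 0.02 in SH libraries; p = 0.1 by the exact test). Promoters overlapped (-0.02 ± 0.02 in EE libraries and 0.03 ± 0.07 in SH libraries; p = 0.4 by the exact test), and without SH replicate 2 their median fold change was -0.02. Depth was higher in EE on average, and its part in the shift was not tested. Among promoter windows inside tested regions, those of lowest GC content (32.3% to 53%, the first of 5 equal bins) had a median log2 fold change of -0.03, and the other bins lay between -0.06 and -0.07.

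By chromosome, the lowest autosomal median was that of chromosome 15. Chromosome 15, which carries Arc and Nr4a1, had a median of -0.10 over 7674 regions, and in 11% of them every EE library lay below every SH library, against 6.3% of all. Chromosome X had a median of 0.06 over 3228 regions. Medians of the other autosomes lay between -0.07 and 0.04.

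Regions near immediate early genes were lower in EE as a group. The list held 21 genes with 248 regions within 100 kb, whose median log2 fold change was -0.19 against -0.01 over all tested regions. Of them 24.6% were positive, against 48.3% of all, and in 14.5% every EE library lay below every SH library, against 6.3% of all. Those near Arc and Btg2 described above were the 2 called in edgeR, both lower, which is 0.806% of the list against 0.0473% of all tested regions. All list regions lie within 100 kb of a protein-coding start. Among all tested regions the median was -0.07 within 1 kb, -0.07 from 1 to 10 kb and -0.01 from 10 to 100 kb. The share positive there was 30.6%, 38.3% and 47.7%. How much of the list's lower median goes with this distance was not tested. By gene, 18 of 21 on the list had a negative median, from -0.40 at Npas4 to 0.12 at Klf4. In other lists this count ran from 4 of 12 microglial genes to 22 of 26 chromatin regulators, with 16 of 20 in the presynaptic cycle. The immediate early gene list was chosen with earlier results of these data known, and its count and median are descriptions.

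The level near immediate early genes depended in part on 1 library. Its median was -0.08, -0.10 and -0.06 in EE libraries and -0.04, 0.06 and 0.22 in SH libraries, relative to the mean of the 6. SH replicate 3 was the highest and SH replicate 1 close to EE. Without SH replicate 3 the list's median fold change was -0.10. Inside Npas4, a neuron-specific activity factor, the 4 regions had library medians of -0.21, -0.24 and -0.20 in EE and -0.17, 0.19 and 0.81 in SH. Inside Nr4a1 the 7 regions had -0.16, 0.00 and -0.57 in EE and -0.04, -0.02 and 0.80 in SH.

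Promoters of the genes fixed for description were not called. The Fos promoter region had 25.1, 24.7 and 21.3 CPM in EE and 24.1, 30.7 and 32 CPM in SH (-0.29 ± 0.11, edgeR adjusted p = 0.47). The Nr4a1 promoter region had 30.4, 26.6 and 22.6 CPM in EE and 27.8, 34.9 and 39.6 CPM in SH (-0.36 ± 0.12, edgeR adjusted p = 0.29). Both pairs of groups overlap, and SH replicate 3 is the highest in each. The values were -0.24 ± 0.14 for Npas4, -0.18 ± 0.09 for Egr1, 0.00 ± 0.16 for Fosb, 0.08 ± 0.14 for a second Homer1 region, at the start given by the study's gene positions, and -0.03 ± 0.14 for Bdnf. The promoter of Rbfox3, the gene for NeuN, differed by -0.06 ± 0.22.

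Among the other 18 lists, 2 held a called region in edgeR, both lower, where 0.0473% of all tested regions were called. The Homer1 region was 1 of 294 in the delayed activity-regulated list (0.34%) and the Bhlhe40 region 1 of 211 in the core clock list (0.474%). Core clock genes had a median of -0.13 over 211 regions, with 14 of 18 genes negative, and -0.04 without SH replicate 3. Oligodendrocyte genes had -0.14 over 146 regions, and their leading region, in the myelin gene Mbp, had 6.2, 6 and 7.8 CPM in EE and 11.5, 9.64 and 11.3 CPM in SH without passing (-0.70 ± 0.16, edgeR adjusted p = 0.058). Glucocorticoid-responsive genes had -0.11 over 204 regions, and -0.07 without SH replicate 3. In 15.2% (31 regions) every EE library lay below every SH library, against 6.3% of all tested regions. Most of the 31 were those of Zbtb16 (12), Klf9 (11) and Ddit4 (5). By gene, 8 of 12 had a negative median, while the receptor genes Nr3c1 and Nr3c2 had 0.13 and 0.14. The leading region of this list, in Zbtb16, a zinc finger repressor, was not called (-0.38 ± 0.10, edgeR adjusted p = 0.12). Voltage-gated channel genes had -0.09 over 487 regions, led by a region of the potassium channel gene Kcnma1 (-0.48 ± 0.13, edgeR adjusted p = 0.13).

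The remaining lists lay nearer to the background. GABAergic interneuron genes had a median of 0.05 over 114 regions and microglial genes of 0.06 over 40. Deep-layer and upper-layer excitatory neuron genes had 0.03 and 0.00. Delayed activity-regulated genes, the postsynaptic density, chromatin regulators, perineuronal nets, the presynaptic cycle, neurotrophic signalling and neuronal identity genes lay between -0.08 and -0.05. The 2 fallen Ntrk2 regions lie over 100 kb from its start and so outside the neurotrophic list. Within that list Ntrk2 had a median of -0.41 over 44 regions, and 12 of the 19 genes had a negative median. Astrocyte, vascular and oligodendrocyte precursor genes had -0.04, -0.02 and -0.01.

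Nuclear RNA from other female libraries of the series (6 EE and 6 SH) gave the levels of the same genes. No gene passed over all 14587 tested in edgeR, and 1265 (8.67%) had an unadjusted p under 0.05. Arc RNA ran from 19.1 to 36.9 CPM in EE and from 5.26 to 23.9 CPM in SH (0.71 ± 0.30, edgeR adjusted p = 0.556). Btg2 RNA averaged 4.32 ± 1.13 CPM in EE and 2.72 ± 0.97 CPM in SH (0.68 ± 0.24, edgeR adjusted p = 0.355). Fos RNA averaged 2.9 ± 0.97 CPM in EE and 1.26 ± 0.96 CPM in SH (edgeR adjusted p = 0.402). Npas4 RNA averaged 22.1 ± 4.68 CPM in EE and 11.1 ± 4.04 CPM in SH (edgeR adjusted p = 0.191). Egr1 RNA differed by 0.91 ± 0.28 (log2, edgeR adjusted p = 0.337). Nr4a1 RNA differed by 0.62 ± 0.32 (log2, edgeR adjusted p = 0.648). Fosb RNA averaged 1.46 ± 0.56 CPM in EE and 0.46 ± 0.36 CPM in SH (1.63 ± 0.40, edgeR adjusted p = 0.163). The RNA fold changes of these 7 genes were all positive and none passed. Those of their promoter regions were negative for Arc, Btg2, Fos, Npas4, Egr1 and Nr4a1 and 0.00 for Fosb, and none passed. Most promoter regions of any gene were negative too: 34.5% of all tested ones were positive, with a median of -0.06.

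RNA of other genes with fallen or risen regions did not pass either. Ntrk2 RNA averaged 1003 ± 68 CPM in EE and 1120 ± 86.7 CPM in SH (-0.16 ± 0.06, edgeR adjusted p = 0.36). Lncpint averaged 919 ± 62.9 CPM in EE and 957 ± 71.7 CPM in SH (-0.06 ± 0.06, edgeR adjusted p = 0.819). Homer1 differed by -0.06 ± 0.09, Bhlhe40 by 0.02 ± 0.14 and Galnt9 by -0.16 ± 0.12. Rgs9 RNA averaged 114 ± 38.2 CPM in EE and 72.2 ± 28.1 CPM in SH (0.66 ± 0.36, edgeR adjusted p = 0.666). Of genes holding risen regions, Zfp804a RNA averaged 238 ± 17.9 CPM in EE and 206 ± 18.4 CPM in SH (0.21 ± 0.06, edgeR adjusted p = 0.223).

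Neurons of male mice, with 6 EE and 7 SH libraries counted over another set of regions, gave no called region among 192834 in edgeR, with 8746 (4.54%) at an unadjusted p under 0.05. Of the 57 risen regions, 26 had a male region that overlapped by at least 50% of each, and 14 of these had the same sign. Of the 21 fallen regions, 10 had one, and 6 had the same sign. Among all 49975 matched regions 53.4% had the same sign. With an overlap of 1 base, 24 of 55 risen and 9 of 19 fallen regions had the same sign.

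For single regions, male values are given here beside the female ones above. The Arc region had a male fold change of -0.02 ± 0.12, the Galnt9 region of -0.06 ± 0.11, the Rgs9 region of -0.11 ± 0.14 and the Homer1 region of 0.27 ± 0.11. The broad Lncpint region had 0.02 ± 0.06. Among risen regions the male values were 0.54 ± 0.33 past the Sox2 start, 0.21 ± 0.11 near Gbe1 and -0.03 ± 0.07 near Tas2r118. Male gene deserts had a median fold change of 0.03 over 7916 regions, with library medians of 0.01 ± 0.07 in EE (n = 6) and -0.00 ± 0.09 in SH (n = 7; exact permutation p = 0.78). A test of the sex by housing interaction over 49978 matched regions called none in edgeR or limma, with 3590 and 3039 at an unadjusted p under 0.05. The tables of the 2 sexes were counted separately, over their own regions, so sex and table cannot be told apart, and a p that misses the threshold does not show that the tables act alike.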

How the data were processed

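The deposited female ATAC table held raw counts per region, with no normalization by the authors visible in the values. Per the submitters' processing notes, the build was mm10 and the tools named, without their roles, were MACS2 2.1.1, STAR 2.5.4, DiffBind 3.2.2, SAMtools 1.3.1, edgeR, DESeq2 1.16.1 and bedtools. Which program counted reads, which filters it used, and how peaks became 1 set is not given in the sources used here. Such steps can move counts of narrow regions most. Coordinates are printed as deposited, so a start may be 1 base off.

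Regions passing edgeR's filterByExpr (164926, with 258 left out) were fitted on housing alone, 3 EE against 3 SH, with TMM scaling and edgeR 4.0.16 quasi-likelihood tests (robust, R 4.3.3), and p-values were Benjamini-Hochberg adjusted over all of them. DESeq2 1.42.0 and limma-voom 3.58.1 were alternatives. CPM used TMM library sizes. The tests were checked on simulated data: false calls were near the nominal rate with a spread that followed the trend, and above it when each region had its own spread. Counting error falls with depth, which was lowest in SH replicate 2.

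Gene positions came from the female RNA table, whose deposited counts were fitted in the same way, as were those of the male ATAC table; 53274 of 53379 gene IDs had a symbol. A promoter region lay within 1 kb of a gene start, a gene body region had its midpoint in a gene, other regions within 100 kb of a start were intergenic near genes, and the rest were gene deserts. A list held the regions whose nearest protein-coding start, within 100 kb, was a member's. Named regions were up to 12 called regions of smallest p in each direction, the region of smallest p of each list, and promoters of fixed genes; others are marked where they appear. The members and lists were chosen with earlier results of these data known. Motifs were searched in RefSeq promoter windows only, and male nuclear RNA was not used here.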

Additional observations from a re-analysis of the deposited data

Results flagged for a closer look

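In 46 groups of 6 nuclear RNA libraries checked, a single library stood far from the rest of its group in 4, where chance gives about 1 in 20. The 46 include groups of C2cd4a, Sox2 and Tas2r118, which had no RNA values and could not stand out. The groups share the same libraries, so they are not independent. Arc reached 36.9 CPM in EE replicate 6, and Ntrk2 reached 1133 CPM in EE replicate 1. Ranbp3l reached 13.2 CPM in SH replicate 2, and Galnt9 reached 127.7 CPM in SH replicate 4. None of these genes passed in the RNA comparison in edgeR.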

How the results depend on the processing

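The 57 higher and 21 lower regions became 94 and 28 with DESeq2, which gave no adjusted p for 95927 regions, 31 and 13 with limma-voom, and 42 and 13 without the robust option. Other scalings and filters gave 49 to 81 higher and 18 to 23 lower. Leaving out 1 library gave 16 to 260 higher and 6 to 73 lower regions. With the replicate number as a block, 26 and 8 were called. Same-numbered libraries correlated at -0.07, 0.07 and 0.03, and differently numbered ones at -0.15 to 0.12. With so few libraries, these values cannot tell whether the numbers pair the samples. Of the 78 called regions, 3 were called in all 15 alternatives and 4 in none of those that left out a library. The gene body median log2 fold change was -0.014 under total count scaling, and 24 of 55 matched risen regions had the same sign in males with a 1 base overlap, against 14 of 26 with the main overlap. The causes were not tested. With 3 libraries a group, no single-value exact test could pass, and low-count regions such as those at Sox2 carry the widest errors.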
